A study of Homo sapiens with 5 samples.

Results

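The 10 genes described here mark the epithelial to mesenchymal state of a cell: the mesenchymal genes VIM, FN1, SPARC and CDH2, the repressors ZEB1, ZEB2 and SNAI2, and the epithelial genes CDH1, GRHL2 and OVOL1. They were taken as a set by name, and each gene's reads were summed over all transcripts that GENCODE release 44 assigns to it. They are 10 of 61220 genes with a GENCODE name in the tables, and 8 of them were among the 13492 genes with enough reads to be tested. In all, 144 of their transcripts were listed, 79 had at least 1 read, and together they held 21851 reads.

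The samples were 5 long-read libraries made from poly(A) RNA of NCI-H1975 and HCC827, which are established human lines from lung adenocarcinoma, grown separately in RPMI medium with serum to near confluency. The labels name a spike-in set for each line, sequins mixA for NCI-H1975 and sequins mixB for HCC827, but the library of HCC827 RNA alone held 0 sequin reads, against 5475 in that of NCI-H1975 RNA alone. A single RNA preparation of each line was mixed by mass. A library's name gives its percent of NCI-H1975 RNA and then of HCC827 RNA: 100:0 was NCI-H1975 alone, 0:100 was HCC827 alone, and the mixtures were 25:75, 50:50 and 75:25. Each ratio had 1 library, so no ratio has a replicate, and every p-value below measures only the scatter of 5 libraries about a trend and not the spread between cultures. Each line is 1 model of its tumour type, and in bulk RNA fewer cells expressing a gene and less RNA per cell cannot be told apart.

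In an epithelium, E-cadherin (CDH1) joins neighbouring cells, and GRHL2 and OVOL1 are transcription factors that keep epithelial genes on. In a mesenchymal state the zinc finger repressors of the ZEB and SNAI families bind short DNA motifs called E-boxes and silence CDH1 and other epithelial genes, while vimentin filaments, fibronectin and other matrix proteins are made. The microRNAs of the miR-200 family act against ZEB1 and ZEB2, and ZEB1 in turn represses the genes of those microRNAs. Carcinoma lines lie at many points between these states.

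Library totals ran from 2932250 to 4058751 reads, and the 10 genes held between 955 reads (0:100) and 6878 reads (75:25). Levels are given as CPM (reads set against the size of the library) scaled by TMM, the trimmed mean of M-values, whose factors fell from 1.16 in the 100:0 library to 0.868 in the 0:100 library. The mitochondrial share of reads rose over the series from 5.65% to 8.85%, and the mean length of the transcripts that reads were assigned to fell from 2581 to 2180 bases; the part of the mitochondrial share in the results was not tested. The labelled tissue was checked against its markers. NKX2-1, KRT7 and EGFR had at least 140 reads in every library, but the surfactant gene SFTPB had 1 read and the protease gene NAPSA 7 reads in the 100:0 library. Of 13 markers of fibroblasts, leukocytes and endothelium, DCN, THY1, PTPRC and CD3E had no read. CD14 had the most, with 10, 16, 5, 5 and 0 reads from the 100:0 to the 0:100 library. The whole list summed to between 1.51 TMM-scaled CPM (0:100) and 7.52 TMM-scaled CPM (75:25), while the 10 genes summed to between 360 and 2014 TMM-scaled CPM.

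The main measure is the slope, which is the log2 change between the pure ends of the series as fitted over all 5 libraries, by the edgeR quasi-likelihood test on the HCC827 share of RNA mass, with Benjamini-Hochberg adjustment over all genes tested and a threshold of 0.05. Of the 8 genes tested, 7 passed: VIM, FN1, SPARC, ZEB1 and SNAI2 fell with HCC827, and OVOL1 and CDH1 rose. Calls were common in these libraries, since 45.7% of all genes tested passed, 23.5% rising and 22.3% falling. ZEB1 reached the minimum of 10 reads only in the 100:0, 75:25 and 50:50 libraries, and OVOL1 only in the 50:50, 25:75 and 0:100 libraries. Their place among the tested genes is thus not independent of a difference. A mixture is linear in reads and curved in their logarithm, so the slope understates the ratio between the pure libraries for a gene nearly absent from 1 line. Slopes are relative to TMM: under library totals alone the median slope of all genes moved from -0.035 to -0.45, and there CDH1 lost its call (slope 0.22) and GRHL2 turned to -0.32, also without a call.

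**Figure D1:**
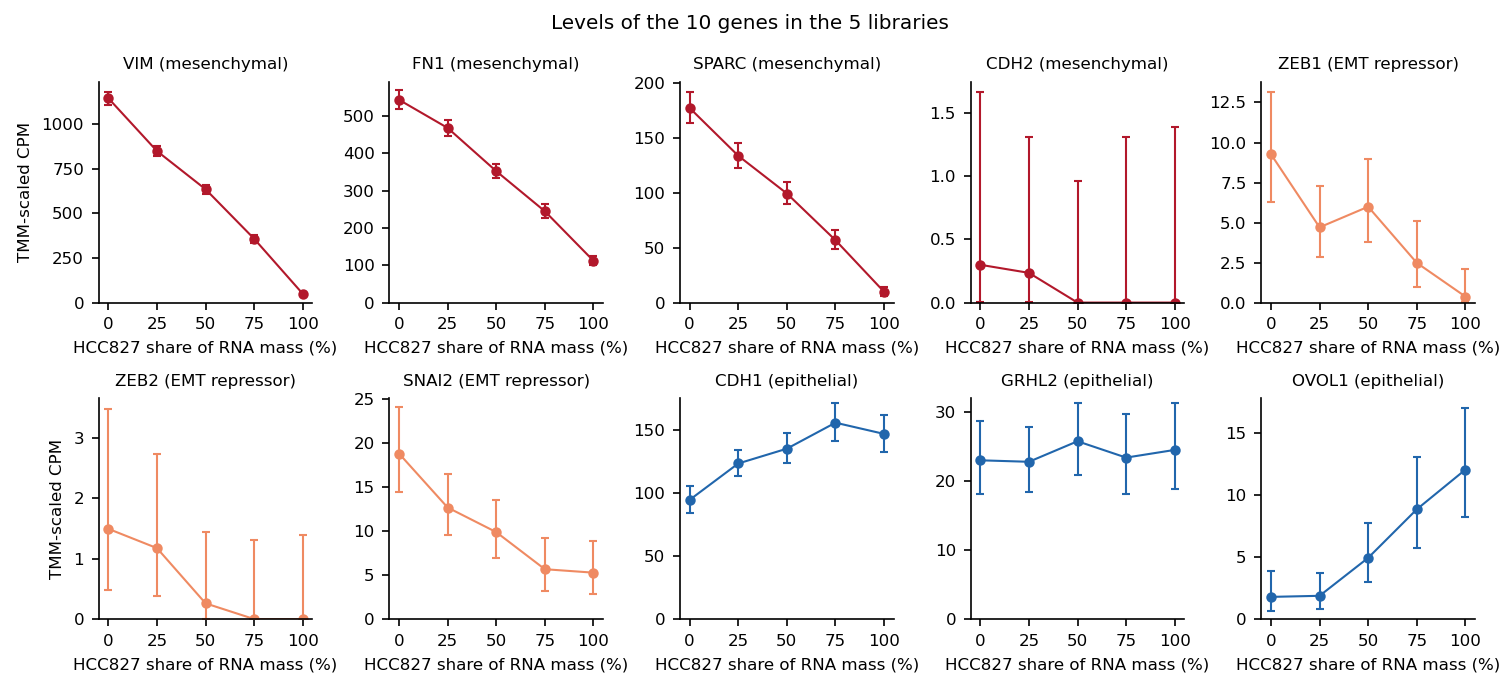
TMM-scaled CPM (linear axes, each from 0) of the 10 genes against the HCC827 share of RNA mass in percent. Each point is 1 library and bars are exact 95% Poisson intervals of its reads, which cover counting error only. VIM falls from 1144 to 49.0 and OVOL1 rises from 1.79 to 12.1, while GRHL2 stays between 22.8 and 25.8.

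VIM (ENSG00000026025.16, chr10:17228241-17237593, plus strand, GRCh38) encodes vimentin, the intermediate filament of mesenchymal cells. It had 3828, 3609, 2437, 1007 and 130 reads in the libraries in order of falling NCI-H1975 share, from 100:0 to 0:100, or 1144, 848, 635, 357 and 49.0 TMM-scaled CPM. The level fell at each step and was by far the lowest in HCC827 RNA alone. Between the pure libraries VIM was 23.3-fold higher in NCI-H1975 (95% counting interval 19.6 to 28.0). Its slope was -3.62 ± 0.59 (SE, 5 libraries), with an edgeR quasi-likelihood adjusted p of 2.98e-04. Without the 0:100 library the slope shrank to -2.17 and still passed. In a comparison of the 2 libraries richest in NCI-H1975 with the 2 richest in HCC827 it did not pass (slope -2.29, edgeR adjusted p = 0.066).

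FN1 (ENSG00000115414.21, chr2:215360440-215436073, minus strand) encodes fibronectin, a large glycoprotein of the extracellular matrix. Its reads were 1817, 1990, 1352, 690 and 297 in that order, which is kept throughout, or 543, 468, 352, 245 and 112 TMM-scaled CPM. The scaled level fell at each step, although the 75:25 library, the deepest, held the most reads. FN1 was 4.85-fold higher in NCI-H1975 than in HCC827 (95% counting interval 4.29 to 5.50), and its slope was -2.13 ± 0.23 (edgeR adjusted p = 1.55e-05). HCC827 thus kept more of its NCI-H1975 level of FN1 reads than of VIM reads, the counting intervals of the 2 ratios lying apart. FN1 reads were assigned to long transcripts, 8141 bases on average, and with each library's trend of expression on transcript length removed the FN1 slope was -1.79.

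SPARC (ENSG00000113140.11, chr5:151661096-151686975, minus strand) encodes osteonectin, a secreted protein that binds collagen. It had 592, 568, 381, 160 and 26 reads, or 177, 134, 99.2, 56.8 and 9.81 TMM-scaled CPM. The order matched that of VIM, with a fall at every step and the lowest level in HCC827 RNA alone. SPARC was 18.0-fold higher in NCI-H1975 (95% counting interval 12.2 to 27.8), an interval that overlaps that of VIM, and its slope was -3.01 ± 0.40 (edgeR adjusted p = 7.09e-05). FN1 and SPARC kept their calls under all 13 alternatives.

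Because these 3 genes fell together, the bases just upstream of their start sites are shown, from RefSeq (GRCh38.p14). RefSeq windows matched 6 of the 10 genes (VIM, FN1, SPARC, CDH2, ZEB1 and ZEB2). Each window ends before the annotated transcript, so some are shorter than 250 bases. Both strands were searched for the E-boxes CACCTG and CAGGTG, which ZEB and SNAI proteins can bind, and for the cyclic AMP response element TGACGTCA, and a match is in capitals.
VIM upstream window, chr10:17227991-17228240, plus strand: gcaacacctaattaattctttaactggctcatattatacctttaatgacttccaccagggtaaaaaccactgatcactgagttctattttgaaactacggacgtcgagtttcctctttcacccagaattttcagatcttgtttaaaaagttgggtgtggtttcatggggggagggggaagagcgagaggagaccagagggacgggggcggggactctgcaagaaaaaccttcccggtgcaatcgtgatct
FN1 upstream window, chr2:215436074-215436318, minus strand: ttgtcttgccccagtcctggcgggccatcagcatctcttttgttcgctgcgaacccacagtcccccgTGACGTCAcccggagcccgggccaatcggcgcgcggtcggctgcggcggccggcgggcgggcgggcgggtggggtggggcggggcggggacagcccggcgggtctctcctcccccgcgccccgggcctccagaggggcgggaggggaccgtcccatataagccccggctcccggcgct
SPARC upstream window, chr5:151686976-151687165, minus strand: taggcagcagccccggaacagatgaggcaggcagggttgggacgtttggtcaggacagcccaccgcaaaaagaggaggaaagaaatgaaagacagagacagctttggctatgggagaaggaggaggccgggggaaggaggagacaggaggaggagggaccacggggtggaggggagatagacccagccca
Neither E-box stood in these 3 windows, and TGACGTCA stood once, in the FN1 window, with its first base at position -183 from the start site. Of 35116 RefSeq windows of 250 bases, 17.5% held at least 1 of the 2 E-boxes and 1.65% held TGACGTCA. A match is a description of the letters and shows no binding. The VIM window lies just upstream of transcript VIM-209, which held 29.3% of VIM reads. VIM-201 and VIM-206 are annotated to start further downstream, at 17229278, and VIM-203 at 17230004. The bases before those starts were not searched.

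CDH2 (ENSG00000170558.10, chr18:27932879-28177946, minus strand) encodes N-cadherin, the adhesion protein that many mesenchymal cells carry in place of E-cadherin. It had 1, 1, 0, 0 and 0 reads and was not tested. The counts are at or under the 3 reads that a count of 0 allows, so no ratio is given, and the 0 reads of the 0:100 library allow up to 1.13 TMM-scaled CPM. The 1 read of the 100:0 library has a 95% Poisson interval that reaches 1.67 TMM-scaled CPM. A difference in N-cadherin RNA between the lines was not detectable at this depth, whereas the other 3 mesenchymal genes all fell with HCC827.

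SNAI2 (ENSG00000019549.13, chr8:48917598-48921740, minus strand) encodes SLUG, a zinc finger repressor of the SNAI family. It had 63, 54, 38, 16 and 14 reads, or 18.8, 12.7, 9.90, 5.68 and 5.28 TMM-scaled CPM. The level fell at each step, but the last 2 libraries differed by less than their counting error. SNAI2 was 3.57-fold higher in NCI-H1975 (95% counting interval 1.98 to 6.89), with a slope of -1.96 ± 0.35 (edgeR adjusted p = 5.93e-04) that kept its call under all 13 alternatives. HCC827 RNA alone still gave 14 SNAI2 reads.

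ZEB1 (ENSG00000148516.23, chr10:31318495-31529814, plus strand) is the zinc finger and homeobox repressor most often tied to loss of E-cadherin. It had 31, 20, 23, 7 and 1 reads, or 9.27, 4.70, 5.99, 2.48 and 0.377 TMM-scaled CPM. The levels were not in order, since the 50:50 library stood above the 75:25 library, but the 2 libraries richest in HCC827 were the lowest. The slope was -2.70 ± 0.70 (edgeR adjusted p = 0.00686). With its 1 read in HCC827 set to 3, ZEB1 was 8.19-fold higher in NCI-H1975. The ratio of the counts as read was 24.6, with a 95% counting interval from 4.09 to 1001. The call was lost without the 0:100 library (slope -1.94) and in the comparison of 2 libraries against 2 (slope -2.21). ZEB1-AS1, the antisense gene that overlaps ZEB1, had 3, 16, 12, 10 and 11 reads, more than ZEB1 itself in the 25:75 and 0:100 libraries, and whether the counting used strand is not given in the sources used here.

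ZEB2 (ENSG00000169554.23, chr2:144364364-144521057, minus strand), the second ZEB repressor, had 5, 5, 1, 0 and 0 reads and was not tested. All reads lay in the 3 libraries with the most NCI-H1975 RNA. The 0 reads in HCC827 do not separate the pure libraries at this depth, because the counting interval of the ratio reaches down to 0.726. ZEB2 passed the slope test only when no filter on low reads was used, which raised the count of called genes among the 10 from 7 to 8.

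ZEB1 and ZEB2 are the classic targets of the miR-200 family, so the mature microRNAs and matching sites are shown here. Mature microRNAs were not measured in these poly(A) libraries. The host gene of miR-200c and miR-141, MIR200CHG, had enough reads to be tested. Of the microRNA genes within it, MIR141 had 2 reads in all and MIR200C 0. The RefSeq sequences are printed with the seed, bases 2 to 8, in capitals: miR-200b, miR-200c and miR-429 share AAUACUG, and miR-200a and miR-141 share AACACUG.
hsa-miR-200b-3p: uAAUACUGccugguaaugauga
hsa-miR-200c-3p: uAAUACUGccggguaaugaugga
hsa-miR-429: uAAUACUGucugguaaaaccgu
hsa-miR-200a-3p: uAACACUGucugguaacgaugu
hsa-miR-141-3p: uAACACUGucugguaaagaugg
The 3′ UTR of transcript ZEB1-202 (2540 bases, GENCODE release 44) held 6 matches to the first seed (CAGTATT) and 3 to the second (CAGTGTT), and that of ZEB2-226 (5370 bases) held 5 and 4. Among the 3′ UTRs of MANE transcripts (1 reference transcript a gene) within 20% of its length, 1 of 2332, which is ZEB1 itself, had as many matches as ZEB1. For ZEB2 it was 2 of 1144, ZEB2 itself included. The first site of each kind is shown with the match in capitals.
ZEB1-202 site, chr10:31527618-31527640, plus strand: attgttttatcttatCAGTATTa
ZEB1-202 site, chr10:31528031-31528053, plus strand: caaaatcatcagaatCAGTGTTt
ZEB2-226 site, chr2:144389052-144389074, minus strand: cgcactaccatacatCAGTATTt
ZEB2-226 site, chr2:144389236-144389258, minus strand: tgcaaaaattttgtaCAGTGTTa
Among the other 8 genes, FN1 had 2 matches, SNAI2 1 and GRHL2 1, and VIM, SPARC, CDH1, CDH2 and OVOL1 had none. Of 3′ UTRs within 20% of the length, 1.05% had as many matches as FN1, 24.6% as SNAI2 and 53.8% as GRHL2. For the genes without a match, the share of such 3′ UTRs with at least 1 ran from 4.97% (VIM) to 45.2% (SPARC). A match is a description and shows no repression in these cells. No read was assigned to ZEB1-202 or ZEB2-226 in any library, so the sites are those of reference transcripts. Some ZEB1 transcripts with reads end before the first ZEB1 site shown, such as ZEB1-217 (9 reads), which ends at chr10:31527294.

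MIR200CHG, on chromosome 12, had 16, 37, 63, 53 and 71 reads, or 4.78, 8.70, 16.4, 18.8 and 26.8 TMM-scaled CPM. It rose over the series (slope 2.26 ± 0.33, edgeR adjusted p = 1.31e-04), opposite to ZEB1. Its level was 5.60-fold higher in HCC827 than in NCI-H1975. ZEB1 is known to bind upstream of this gene, so its window is shown, and it held CACCTG once, with the first base at position -78. Of all RefSeq windows of 250 bases, 17.5% held CACCTG or CAGGTG, and a match shows no binding. Whether ZEB1 acts on MIR200CHG in these lines was not tested.
MIR200CHG upstream window, chr12:6962995-6963224, plus strand: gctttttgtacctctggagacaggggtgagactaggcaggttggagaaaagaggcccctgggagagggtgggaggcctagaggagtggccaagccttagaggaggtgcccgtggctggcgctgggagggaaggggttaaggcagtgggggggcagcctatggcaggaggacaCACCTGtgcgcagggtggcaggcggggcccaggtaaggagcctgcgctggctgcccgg

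CDH1 (ENSG00000039068.20, chr16:68737292-68835537, plus strand) encodes E-cadherin, the adhesion protein of epithelial junctions. It had 317, 526, 520, 440 and 390 reads, or 94.8, 124, 135, 156 and 147 TMM-scaled CPM. NCI-H1975 RNA alone had the lowest level, and the highest was in the 25:75 library and not in HCC827 RNA alone. CDH1 was 1.55-fold higher in HCC827 (95% counting interval 1.34 to 1.81). Its slope was 0.63 ± 0.15 (edgeR adjusted p = 0.00394), the smallest in size of the 7 called, and the call was lost under library totals (slope 0.22), without the 100:0 library (0.40) and in the comparison of 2 libraries against 2 (0.47). E-cadherin reads were plentiful in both lines, so the 2 RNAs differed far less in CDH1 than in VIM or SPARC.

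GRHL2 (ENSG00000083307.12, chr8:101492439-101669726, plus strand) encodes a grainyhead-like factor that activates CDH1 and other junction genes. It had 77, 97, 99, 66 and 65 reads, or 23.0, 22.8, 25.8, 23.4 and 24.5 TMM-scaled CPM. The 5 levels lay within their counting error of each other. The ratio of HCC827 to NCI-H1975 was 1.07 (95% counting interval 0.754 to 1.5), and the slope was 0.094 ± 0.23 (edgeR adjusted p = 0.758). That interval leaves room for a difference of up to 1.5-fold in one direction and 1.33-fold in the other.

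OVOL1 (ENSG00000172818.10, chr11:65787063-65797214, plus strand) encodes a zinc finger factor that holds cells in the epithelial state and represses ZEB1. It had 6, 8, 19, 25 and 32 reads, or 1.79, 1.88, 4.95, 8.87 and 12.1 TMM-scaled CPM. The level rose at each step, with the 2 libraries richest in NCI-H1975 close together and low. OVOL1 was 6.73-fold higher in HCC827 (95% counting interval 2.78 to 19.7), and its slope was 3.07 ± 0.52 (edgeR adjusted p = 4.22e-04). The call was kept under all 12 alternatives that could be fitted, although it rests on 90 reads. The antisense gene ENSG00000255404 overlaps OVOL1 and had 0, 12, 12, 6 and 9 reads.

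Thus the epithelial genes behaved unequally. OVOL1 rose more than CDH1, the counting intervals of their ratios lying apart, and GRHL2 did not pass the test, with an interval that overlaps that of CDH1. The 5 libraries lay in order for 5 of the 8 genes tested (VIM, FN1, SPARC, SNAI2 and OVOL1), against 28.5% of all genes tested. The pure libraries were at least 4-fold apart for VIM, FN1, SPARC, ZEB1 and OVOL1, with any count under 3 set to 3, against 11.0% of all genes. The first 4 were higher in NCI-H1975, as were 5.98% of all genes, and OVOL1 was higher in HCC827, as were 4.97%. ZEB1 and OVOL1 were tested only through libraries where they were high, so setting them against these shares is not independent of a difference. The counting interval of OVOL1 (2.78 to 19.7) also reaches under 4-fold. With counts under 10 set to 10, 4 of the 10 genes remained at least 4-fold apart.

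Ratios of reads within a library do not depend on how libraries are scaled, and they show the balance of the mesenchymal and epithelial genes directly. They compare reads and not molecules, since the genes differ in length, and only their change from library to library is read here. There were 12.1 VIM reads for each CDH1 read in the 100:0 library, then 6.86, 4.69 and 2.29 in the mixtures, and 0.333 in the 0:100 library. The ratio of FN1 to CDH1 reads ran from 5.73 down to 0.762, and that of SPARC to CDH1 from 1.87 down to 0.0667. All 3 ratios fell at every step, and neighbouring libraries had 95% counting intervals that did not overlap. The ratio of SNAI2 to GRHL2 reads fell from 0.818 (95% counting interval 0.577 to 1.16) to 0.215 (0.112 to 0.388), with overlapping intervals between neighbouring libraries.

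**Figure D2:**
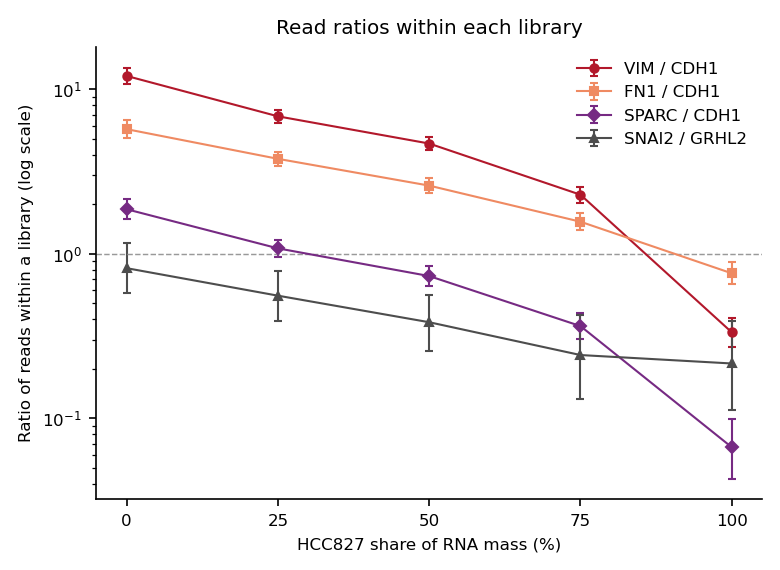
Ratio of reads of 2 genes within each library (log axis) against the HCC827 share of RNA mass in percent. Bars are exact 95% counting intervals and the dashed line marks equal reads. The ratio of VIM to CDH1 falls from 12.1 to 0.333 and that of SNAI2 to GRHL2 from 0.818 to 0.215.

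The mixtures have a known composition, so each gene can be set against a linear mix of the 2 pure libraries. Over 10013 other genes, HCC827 supplied an estimated 32.7%, 55.5% and 78.2% of the reads of the 75:25, 50:50 and 25:75 libraries, above its shares of the mass. Taken alone, VIM placed the same libraries at 33.0% ± 1.6, 53.7% ± 1.3 and 77.5% ± 0.92 HCC827 reads (counting SE). SPARC placed them at 32.1% ± 4.2, 53.7% ± 3.3 and 77.6% ± 2.4. Both genes lay within 2 counting SE of the shares from the other genes in all 3 mixtures. With only genes of at least 500 reads as the reference (34.5%, 57.8% and 80.2%), VIM lay more than 2 counting SE below the shares of the 50:50 and 25:75 libraries. FN1 gave 24.8% ± 3.0, 51.9% ± 2.3 and 75.6% ± 1.9, the first of which lay below the share from other genes by more than 2 counting SE. Against the reference of genes with at least 500 reads, FN1 lay more than 2 counting SE below the share in all 3 mixtures. SNAI2, with 185 reads in all, gave 48.3% ± 13.9, 69.0% ± 11.6 and 96.0% ± 10.2.

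Of the 24 pairs of tested gene and mixed library, 5 lay beyond 2 counting SE of the linear mix, against 10.8% of pairs over all genes. CDH1 supplied 3 of the 5. Its reads exceeded the mix by 63.3 in the 75:25 library, 61.9 in the 50:50 library and 64.0 in the 25:75 library, where 463, 458 and 376 were expected. All 3 values rest on the same 2 pure libraries and are not independent, and among genes with 1000 to 5000 reads 14.6% of pairs lay as far off. The other 2 were FN1 in the 75:25 library, with 1990 reads where 1821 were expected, and OVOL1 in the same library, with 8 reads where 19.3 were expected.

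**Figure D3:**
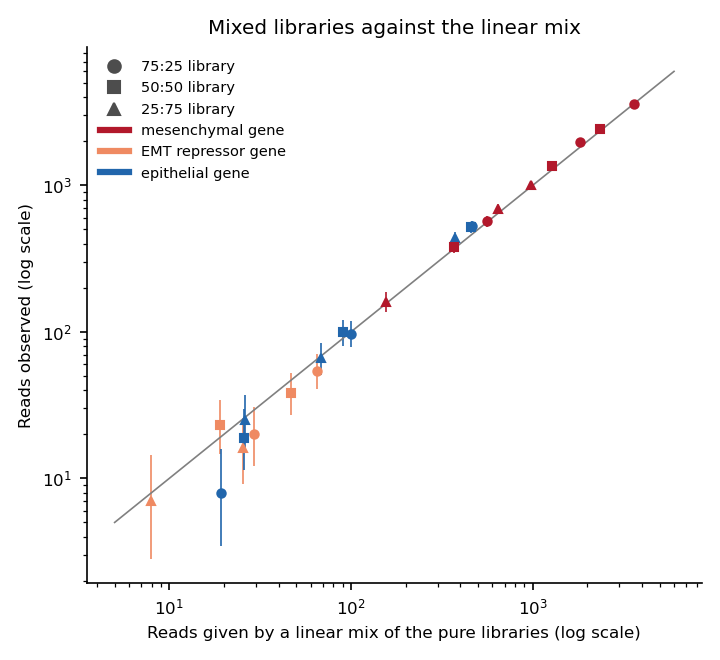
Reads observed in the 3 mixed libraries against the reads given by a linear mix of the pure libraries, both on log axes, for the 8 genes tested. Shapes mark libraries, colours mark the genes' roles, bars are exact 95% Poisson intervals, and the line marks equality. Most points sit on the line, with the 3 CDH1 points just above it and OVOL1 in the 75:25 library (8 reads against 19.3) below it.

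Of the transcripts of the 10 genes, 24 had enough reads to be tested, and 33.6% of all transcripts tested passed the same edgeR test. All 4 tested VIM transcripts fell, as did 16.1% of all transcripts, with slopes from -3.43 to -3.30. VIM-209 (2154 bases) held 29.3% of VIM reads, VIM-201 (1868 bases) 28.4%, VIM-203 (2666 bases) 21.4% and VIM-206 (2272 bases) 20.5%, of which the first 2 are annotated as protein-coding and the last 2 as targets of nonsense-mediated decay. In FN1, 12 of 13 tested transcripts fell, and 10 transcripts, from 7759 to 9171 bases long, each held between 382 and 641 reads and together 94.3% of the gene's reads, FN1-207 (10.4%) and FN1-203 (10.3%) the most. SPARC-201 held 96.8% of SPARC reads, and both tested SPARC transcripts fell.

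CDH1-201, the full-length coding transcript, held 75.5% of CDH1 reads and rose (slope 0.60 ± 0.18, edgeR adjusted p = 0.0166). CDH1-210, annotated as a decay target, held 21.8% and did not pass (slope 0.35 ± 0.21, edgeR adjusted p = 0.203). SNAI2-201 held 96.2% of SNAI2 reads and fell, OVOL1-201 held 77.8% of OVOL1 reads and rose, and OVOL1-203 held the other 22.2%. GRHL2-206 held 93.3% of GRHL2 reads and did not pass. ZEB1 reads were spread over 13 transcripts, of which ZEB1-205, annotated as a retained intron, held 15 reads, ZEB1-203 and ZEB1-204 14 each, ZEB1-201 11 and ZEB1-217 9. ZEB2-235 and ZEB2-245 held 2 of the 11 ZEB2 reads each, and CDH2-201 held both CDH2 reads.

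A change in the balance of transcripts was tested for the 4 genes with at least 2 tested transcripts, VIM, FN1, CDH1 and SPARC. None passed the diffSpliceDGE test of edgeR with Simes p-values, against 0.402% of the 7455 genes tested, and none passed its gene-level F test (smallest edgeR adjusted p = 0.948). In both tests 0 of them had an unadjusted p under 0.05. VIM-209 took 30.2% of VIM reads in the 100:0 library (95% Wilson interval 28.7 to 31.6) and 28.5% in the 0:100 library (21.4 to 36.7). CDH1-210 took 26.2% (21.6 to 31.3) and 22.3% (18.5 to 26.7) of CDH1 reads. Near-even shares over transcripts that overlap in most of their exons depend on how the authors' counting divided shared reads, so the shares of VIM and FN1 transcripts are uncertain.

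**Figure D4:**
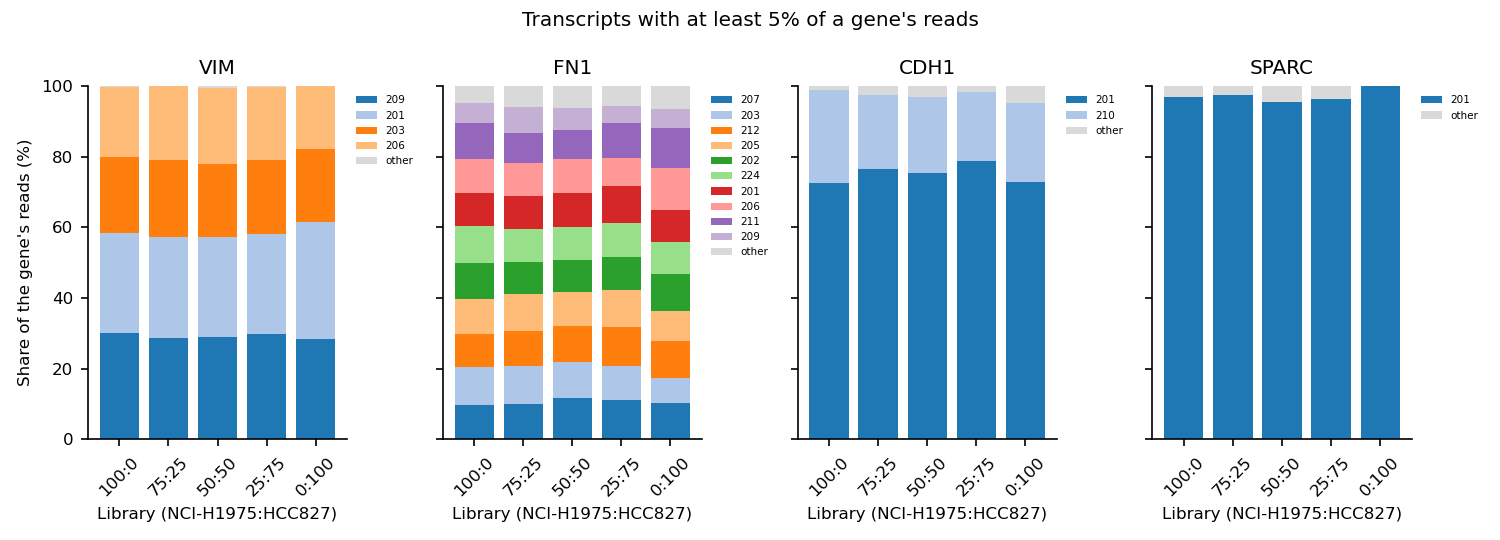
Share of a gene's reads (percent, bars from 0 to 100) held by each transcript with at least 5% of them, in the 5 libraries, for VIM, FN1, CDH1 and SPARC. Numbers in the keys are GENCODE transcript suffixes (209 is VIM-209), and grey is all other transcripts. The shares keep about the same height from library to library, CDH1-201 holding 72.6% in the 100:0 and 72.8% in the 0:100 library.

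Other genes of the same programmes were read from fixed lists, which were chosen with earlier results of these data known. Of all genes tested, 23.5% rose and 22.3% fell. Of 8 adhesion partners of the cadherins, all tested, CTNNA1 (slope 0.98), JUP (0.85) and CTNND1 (0.35) rose, CTNNB1 fell (-0.76), and CDH3, VCL, AFDN and NECTIN2 did not pass, although CDH3 (-0.48) and VCL (-0.59) fell under library totals and AFDN (0.50) rose with the length trend removed. The median slope was 0.30 against -0.035 over all genes. CTNNA1 and CTNNB1 encode alpha- and beta-catenin, JUP encodes plakoglobin and CTNND1 p120-catenin. CTNND1 turned to -0.060 under library totals and lost its call under 8 other alternatives, among them leaving out the 100:0 (slope 0.37), 75:25 (0.37), 25:75 (0.34) or 0:100 (0.33) library.

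Of 23 further epithelial genes, all tested, 19 rose, against 23.5% of all genes, and 1 fell, against 22.3%. The other 3 did not pass, and the median slope was 1.52. The largest rises were those of ELF3, an epithelial transcription factor (slope 3.22), TJP3, a tight junction protein (2.78), MIR200CHG (2.26) and RAB25, a small GTPase of epithelial cells (2.19). DSP, which encodes the desmosome protein desmoplakin, fell (-1.25), and EPCAM, GRHL1 and PKP3 did not pass, although EPCAM (slope -0.39) and PKP3 (-0.69) fell under library totals. OVOL2, the close relative of OVOL1, went from 13 to 63 reads between the pure libraries and rose (1.97, or 1.28 without the 100:0 library). CDH1 rose less than the median of this list, with a slope of 0.63.

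Of 30 further mesenchymal genes, 27 were tested, of which 23 fell, against 22.3% of all genes, and 2 rose, against 23.5%. S100A4 and TPM2 did not pass, S100A4 falling under library totals (slope -0.65). The median slope was -2.03, or -1.89 when the 4 genes with 0 reads in HCC827 are set at the value that 3 reads give. MMP14, a membrane metalloprotease, went from 1161 reads in NCI-H1975 to 0 in HCC827. With that 0 set to 3, MMP14 was 307-fold higher in NCI-H1975, and the counting interval of the ratio reached down to 249. COL1A2 and COL5A1, chains of fibrillar collagens, went from 96 and 168 reads to 0. With 0 set to 3 they were 25.4-fold and 44.4-fold higher in NCI-H1975, with counting intervals down to 20.2 and 35.7. All 3 passed, but under the DESeq2 Wald test MMP14 and COL5A1 had slopes of -5.10 and -4.77 that did not pass (adjusted p = 0.190 and 0.102). Neither passed with 2 libraries against 2 (edgeR adjusted p = 0.123 and 0.064). Without the 0:100 library the slope of MMP14 shrank to -2.53. Some genes of the list that fell, among them these 3, reached the minimum of 10 reads only in libraries with NCI-H1975 RNA. Their place among the tested genes is thus not independent of a fall. When 10 reads were required in every library, 15 genes of the list were called in either direction, in place of 25. CCN1, a matricellular protein, rose (slope 2.52), as did NT5E (0.35), which encodes the ectoenzyme CD73. NT5E turned to -0.062 under library totals and lost its call under 7 other alternatives, among them leaving out the 75:25 (slope 0.34), 50:50 (0.35) or 0:100 (0.22) library.

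Of 9 other transcription factors tied to the mesenchymal state, 3 had enough reads. SNAI1, the sister gene of SNAI2, had 140, 126, 101, 41 and 9 reads and fell (slope -2.53 ± 0.40, edgeR adjusted p = 2.29e-04). TWIST2 had 0, 17, 25, 41 and 55 reads and rose. With its 0 reads in NCI-H1975 set to 3, TWIST2 was 23.1-fold higher in HCC827, and the counting interval of the ratio reached down to 18.2. TWIST2 thus moved opposite to SNAI1, SNAI2 and ZEB1, and TCF3 did not pass but fell under library totals (slope -0.70). TWIST1 and GSC had no read in any library.

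**Figure D5:**
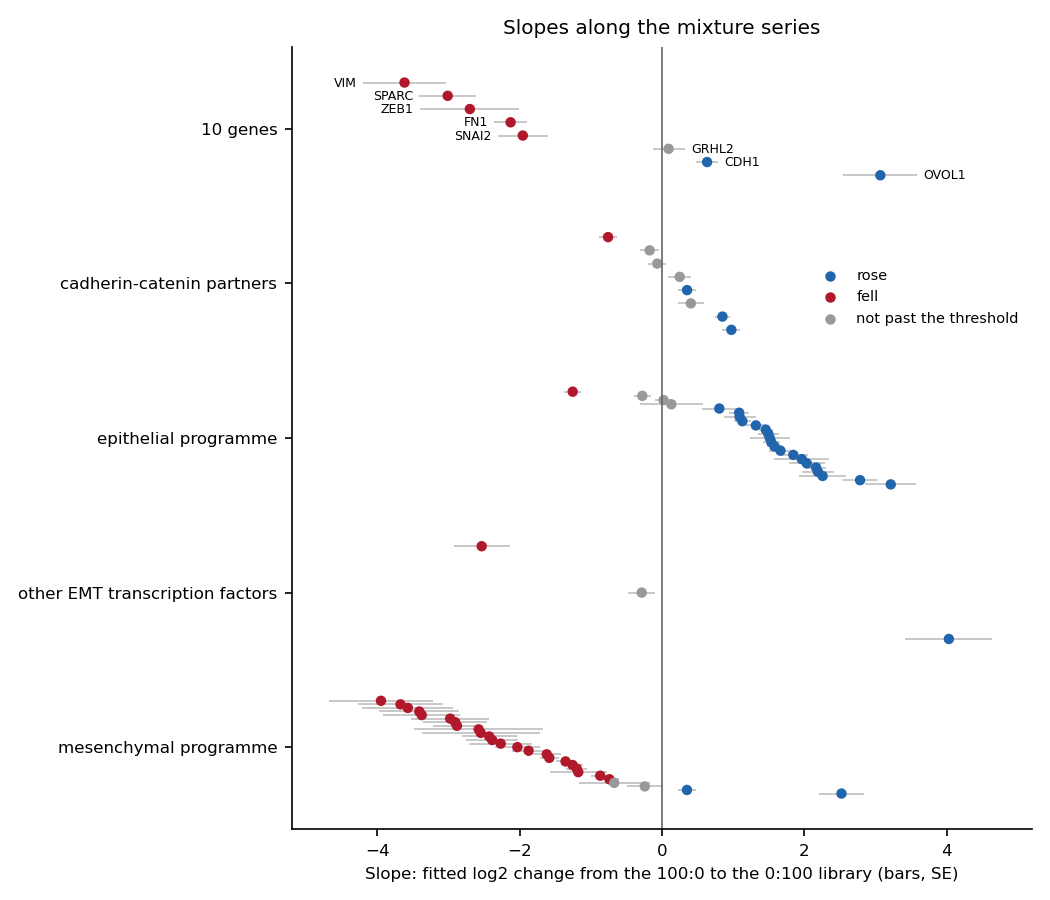
Slopes (fitted log2 change between the pure ends) with their SE for the 8 tested genes of the set, with their names, and for the tested genes of 4 fixed lists. Blue points rose and red points fell with HCC827 past the threshold, and grey points did not pass it. Of the named genes VIM lies farthest to the left (-3.62) and OVOL1 farthest to the right (3.07), and 19 of 23 epithelial genes lie right of 0 as calls.

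The genes with the most similar profile over the 5 libraries were sought among genes with at least 100 reads, by the root mean square (RMS) difference of log2(CPM + 1) levels, TMM-scaled and centred on their mean. For VIM they were PSG4 (0.059), AIM2 and COL1A1. PSG4 had 66, 61, 42, 17 and 0 reads. Where a gene has few or no reads in HCC827, as PSG4 (0), AIM2 (2), MSX1 (0) and FBXO2 (1) do, its place rests on the 1 CPM added before the logarithm. For SPARC they were MSX1 (0.035), FBXO2 and NFIX, for FN1 CPE (0.037), ZNF320 and CCDC88A, and for SNAI2 ZNF570 (0.039), SEPSECS-AS1 and MOB3A. For CDH1 they were PTTG1IP (0.025), ENKD1 and NADSYN1, and for GRHL2 POLR2D (0.018), CEP170B and PPP2R3C. PTTG1IP had 317, 507, 519, 444 and 394 reads, and like CDH1 it was highest on the TMM scale in the 25:75 library.

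The remaining genes that overlap the set in the annotation held few reads. VIM-AS1 had 21 reads in all against 11011 for VIM, CLMAT3 had 23 against 1727 for SPARC, and FTLP14, a pseudogene within CDH1, had 18 against 2193.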

How the data were processed

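Poly(A) RNA of NCI-H1975 and HCC827 mixed in 5 ratios was sequenced as PCR-amplified nanopore cDNA, size-selected, 1 library a ratio, per the labels' protocols. The authors deposited, per library, an estimated count of reads and a length for each transcript, unscaled and unfiltered. The submitters' processing notes name minimap2 2.24, Salmon 1.9.0 and GRCh38. The annotation release, the division of shared reads and the use of strand are not given in the sources used here. Of all values, 2 were not whole and were rounded, and 161 repeated identifiers were summed. Identifiers were paired with genes through GENCODE release 44, which matched 224076 of 227751 human transcripts with 98.6% of human reads.

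Features with at least 10 reads in at least 2 libraries entered edgeR 4.0.16 (R 4.3.3, limma 3.58.1): a quasi-likelihood test of the slope on the HCC827 mass fraction, TMM scaling, Benjamini-Hochberg adjustment, threshold 0.05, over all 5 libraries. The SE of a slope was taken from its F statistic. Transcript balance was tested with diffSpliceDGE. Pure libraries were compared without a test, with exact 95% counting intervals and counts under 3 set to 3. The HCC827 share of reads was the maximum-likelihood weight of a mixture of the pure libraries (genes with at least 50 reads in them, pseudocount 0.5). No molecular identifiers are recorded, so intervals and limits cover counting error only. Scripts were tested on simulated data. Alternatives were other scalings, filters, covariates and libraries, DESeq2 1.42.0 and, chosen after seeing the data, removal of length trends.

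The 10 genes, lists and tests were chosen with earlier results of these data known. Genes named were all 10, list genes past the threshold (of long lists, the 4 with the largest slopes in each direction), the 3 nearest profiles, transcripts with at least 10% of a gene's reads and overlapping genes. Outside that rule, OVOL2 was named after its values were seen, as were genes not past the threshold, genes without reads and FSTL1. A gene that the rule names in the mesenchymal list is not reported here. The label and other-cell markers were fixed lists.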

Additional observations from a re-analysis of the deposited data

Results flagged for a closer look

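The sequins, synthetic spike-in transcripts that none of the comparisons used, had 5475 reads in the 100:0 library, 4678 in the 75:25 library, 2830 in the 50:50 library and 1269 in the 25:75 library. They are listed because these reads lie above the 3 reads that a count of 0 allows, while the 0:100 library had 0 sequin reads although its label names a sequin mix. The sequins entered no scaling of the 10 genes.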

How the results depend on the processing

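Each slope of the 8 tested genes was recomputed under up to 13 alternatives. Of 102 values, 95 kept direction and side of the threshold, 6 lost the call (VIM 1, CDH1 3, ZEB1 2) and 1 turned. For all 61 tested list genes, called or not, 710 of 778 values kept both, 47 lost the call, 7 gained one and 14 turned. Library totals turned GRHL2 (-0.32), CTNND1 (-0.060), NT5E (-0.062), AFDN (-0.16), NECTIN2 (-0.0068), EPCAM (-0.39) and GRHL1 (-0.28) and gave falling calls to CDH3, VCL, PKP3, TCF3, S100A4 and EPCAM. With the length trend removed CDH3 (0.083), VCL (0.11) and EPCAM (-0.18) turned and AFDN gained a call. EPCAM also turned with no filter (-0.0043) and with 10 reads in every library (-0.031). With each library left out in turn, EPCAM ran from -0.013 to 0.092, GRHL1 from -0.14 to 0.51 and CDH3 from -0.14 to 0.072, and PKP3 gained a call with 10 reads in every library. Of these genes, CTNND1 and NT5E alone were called in the main test. Under library totals the share of called genes that rose went from 51.3% to 26.0%. With 2 libraries against 2, 2291 genes (6172 with all 5), 4382 transcripts (10660), 4 of the 10 genes (7), 1 cadherin partner (4) and 12 mesenchymal genes (25) were called, with fewer libraries in the fit. DESeq2 called 6072 transcripts. Requiring 10 reads in every library left calls for 15 mesenchymal genes and 0 other transcription factors. Fewer genes were tested there, and NT5E was tested and lost its call. With each library left out in turn, 4068 to 5859 genes, 6287 to 10171 transcripts and 6 to 7 of the 10 genes were called, and 4 to 20 genes changed transcript balance, against 30 with all libraries and 64 by the F test. A floor of 10 reads left 746 genes at least 4-fold apart in place of 1477. With 500 reads as the minimum, the HCC827 read shares were 34.5%, 57.8% and 80.2%, and the cause was not tested. No paired analysis was possible because each ratio has 1 library.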

Other observations

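FSTL1, a secreted glycoprotein of the mesenchymal list, was uneven over the mixtures, with 584, 190, 78, 118 and 56 reads from the 100:0 to the 0:100 library. Its 75:25 level was 44.7 TMM-scaled CPM against 175 in NCI-H1975 RNA alone, and its slope of -2.98 lost its call without the 100:0 library (slope -0.90, edgeR adjusted p = 0.083). TP63, a transcription factor of squamous and basal cells, fell from 98 to 21 reads between the pure libraries (slope -1.40 ± 0.33, edgeR adjusted p = 0.00372). Of the other squamous markers, the keratins KRT5 and KRT6A each had 1 read in all. DSG3 had 9, 4, 3, 2 and 2 reads from the 100:0 to the 0:100 library and was not tested. FOXC2 was read 6 times in the 75:25 library and in no other.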
